A study of Homo sapiens with 18 samples.

Results

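The genes described here are the core components of the TGF-β signalling pathway: the ligands TGFB1, TGFB2 and TGFB3, the receptors TGFBR1, TGFBR2 and TGFBR3, and the intracellular mediators SMAD2, SMAD3, SMAD4 and SMAD7. They were found in the count tables by the Ensembl identifier that carries each symbol in the GENCODE annotation. This gave 10 genes of the 61541 listed, and all 10 held enough reads to be tested in both tables. The rule used no measured value, although the genes were chosen with earlier results of these data known.

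RNA-seq had been performed on A549, a human lung adenocarcinoma cell line of the NSCLC type labelled as wild type, grown in high-glucose DMEM with fetal bovine serum. There were 18 libraries in 6 groups of 3. In the first experiment, untreated cells (Control 3 days) were compared with cells given sodium propionate (SP), the salt of a short-chain fatty acid, at 5 mM for 3 days (SP 3 days) or 12 days (SP 12 days). In the second, untreated cells (Control 24 hours) were compared with cells given 5 mM SP for 3 hours (SP 3 hours) or 24 hours (SP 24 hours). SP 12 days has no control of its own age in culture and SP 3 hours has only the control taken at 24 hours, so that time in culture and SP cannot be told apart for these groups. The SP groups of an experiment are compared with the same control libraries, which makes their results against control dependent on each other. All groups are of 1 cell line, and the labels do not say whether libraries came from separate cultures, so the p-values measure the spread between these libraries, which may be technical. The question is whether the transcripts of this pathway, a known inducer of the epithelial-to-mesenchymal transition that the study set out to oppose with SP, differ in cells given SP.

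TGF-β ligands are secreted in a latent form and, once released, bind the type II receptor TGFBR2, which then recruits and phosphorylates the type I receptor TGFBR1. The active type I receptor phosphorylates SMAD2 and SMAD3, which enter the nucleus with SMAD4 and regulate transcription. SMAD7 is itself a target of the pathway and blocks it at the receptor. In lung carcinoma cells such as A549, TGF-β is widely used to bring about the mesenchymal state.

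Library totals ranged from 14187401 to 43765330 assigned reads. A549 identity held in all libraries: the 10 epithelial and A549 markers (among them KRT8, KRT18, CDH1 and ALDH1A1) summed to between 16500 and 24000 CPM (read counts scaled to library size, with TMM factors) and none was at 0, whereas 5 endothelial markers summed to at most 3.04 CPM. The 6 lung lineage markers, among them NKX2-1 and the surfactant genes, were near absent, with sums of 2.22 to 3.42 CPM in Control 3 days, 7.19 to 8.09 CPM in SP 3 days, 0.569 to 1.09 CPM in Control 24 hours and 2.69 to 3.66 CPM in SP 24 hours. Their sums were 5.09 to 8.27 CPM in SP 12 days and 0.879 to 1.36 CPM in SP 3 hours. Summed fibroblast and mural markers (8 genes) were higher after 24 hours of SP or longer. They were at 75 to 87.7 CPM in SP 3 days and 66.5 to 95.4 CPM in SP 24 hours against 26.9 to 29.7 and 10.1 to 29 CPM in the controls. SP 12 days held 52.7 to 82.5 CPM, and SP 3 hours, at 22.9 to 43.5 CPM, overlapped its control. COL1A1 and ACTA2 made up most of this sum, and 1 or 2 of the 8 markers had 0 reads in every group. Of these 2 genes only COL1A1 was higher. Its mean was 13.3 CPM in both controls, 61.9 CPM in SP 3 days and 74.4 CPM in SP 24 hours. ACTA2 had means of 12.7 CPM in Control 3 days and 12.2 CPM in SP 3 days, and 5.10 CPM in Control 24 hours and 3.41 CPM in SP 24 hours. The summed immune markers (6 genes) were 34.9 to 38.2 CPM in SP 3 days and 17.3 to 18.5 CPM in Control 3 days, and 14.9 to 17.1 CPM in SP 24 hours and 3.46 to 4.32 CPM in Control 24 hours, with CD14 as most of the sum and 1 to 3 of the 6 at 0 reads. The immune sums in SP 12 days (13.6 to 26.8 CPM) and SP 3 hours (3.01 to 4.87 CPM) overlapped those of their controls. The part of these markers in the results below was not tested. In RNA from a whole culture, fewer cells that express a gene and less RNA of it per cell cannot be told apart.

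Per kilobase of the canonical transcript, the level in Control 3 days was highest for TGFBR2, at 106.1 ± 1.52 CPM per kb (SD, n = 3). TGFB1 followed at 65.5 ± 5.77, SMAD3 at 36.2 ± 0.900 and TGFBR1 at 10.5 ± 0.518 CPM per kb. TGFB2 (6.62 ± 1.05), SMAD7 (6.46 ± 0.253) and SMAD4 (6.42 ± 0.243) did not differ beyond their spread, and SMAD2 (4.62 ± 0.385), TGFBR3 (3.07 ± 0.104) and TGFB3 (0.534 ± 0.115) lay lower. In Control 24 hours the order at the top was not separable, with SMAD3 at 59.5 ± 15.3, TGFB1 at 58.4 ± 20 and TGFBR2 at 58.3 ± 6.64 CPM per kb. The canonical SMAD2 transcript is 34626 bases long, so that its level per kb depends on that model being the one expressed.

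After 3 days of SP, 6 of the 10 genes rose and 1 fell, with TGFB2, TGFBR3 and SMAD7 changing the most. This count is to be read against 25.2% of all 17775 tested genes that rose and 23.3% that fell at the same threshold, an adjusted p under 0.05 in edgeR's quasi-likelihood test with Benjamini-Hochberg adjustment. By the stricter rule, a change of at least 2-fold with an adjusted p below 0.0001, 2 genes were called (TGFB2 and TGFBR3), against 8.44% of all genes. After 12 days 5 rose and 1 fell, where 26.4% of all genes rose and 23.4% fell, and the same 2 genes met the stricter rule, against 9.11%. After 3 hours none rose and 2 fell, where 7.39% rose and 4.11% fell, and after 24 hours 2 rose and 1 fell, of 16.8% and 12.0% among the 17377 genes tested. Same-numbered libraries of Control 24 hours and SP 24 hours deviated together, but some differently numbered libraries of the experiment did so as well. The labels do not say that a shared number marks a pair. With the replicate number as a block in a fit of these 2 groups 3 genes rose and 2 fell, where 20.1% of all genes rose and 18.2% fell. The median log2 fold change of the 10 genes was 0.36 at 3 days, 0.26 at 12 days, -0.02 at 3 hours and 0.27 at 24 hours, beside medians over all genes of -0.02, 0.00, 0.00 and -0.01. By library, 7 of the 10 genes had SP 3 days and Control 3 days values that did not overlap, which held for 61.2% of all genes, and 6 of 10 at 24 hours, which held for 44.4%.

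**Figure D1:**
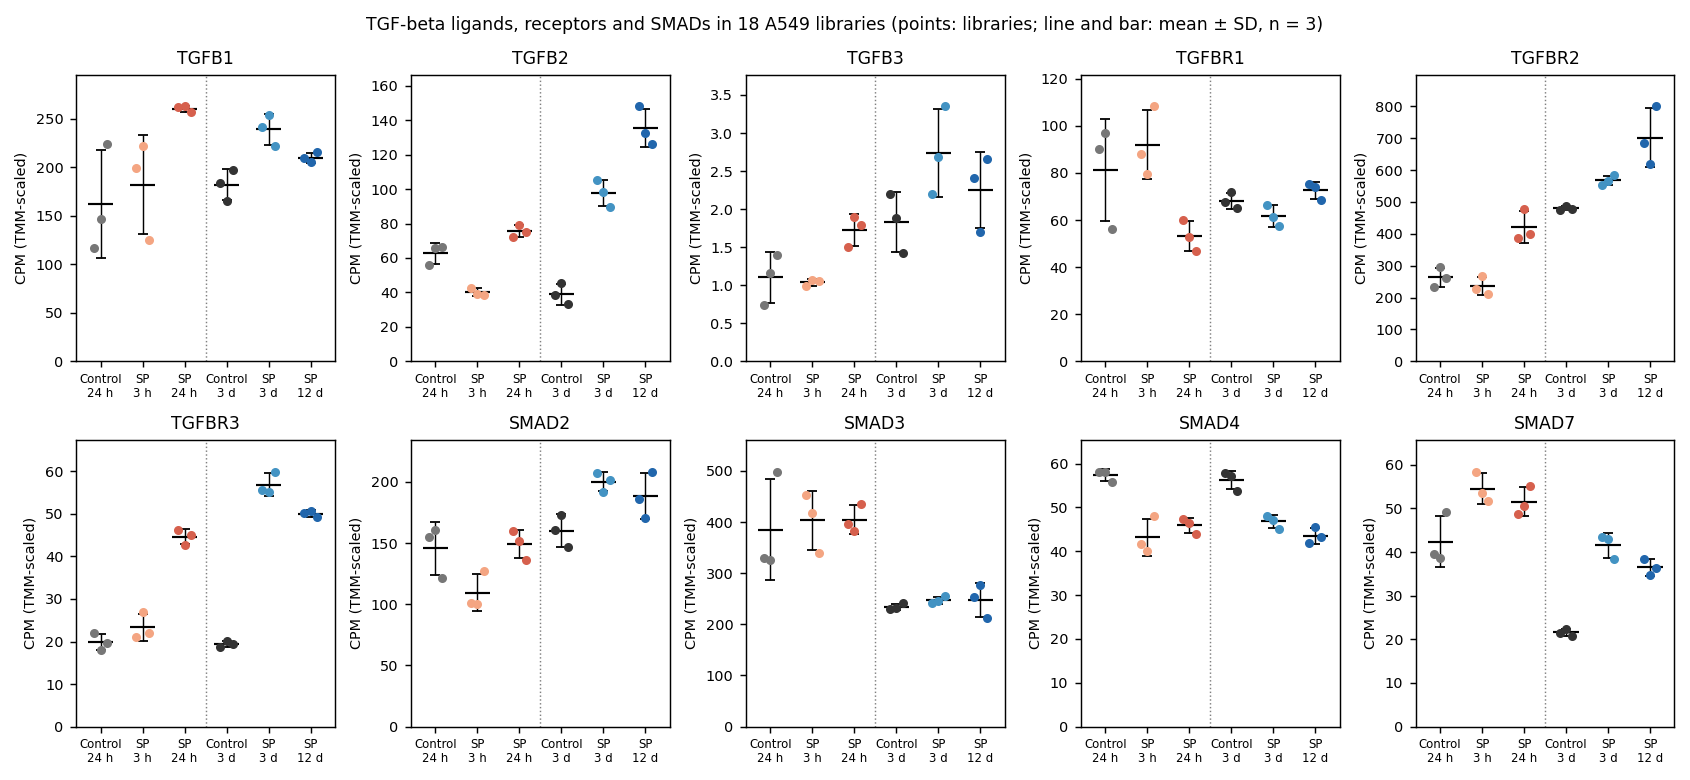
Level of each of the 10 genes (CPM scaled by TMM, linear axis from 0) in the 18 libraries, by group; points are libraries, the line and bar the mean ± SD of 3 libraries, and the dotted line parts the 2 experiments. TGFBR3 lies between 42.8 and 59.9 CPM in every library given SP for 24 hours or longer and between 18.1 and 26.9 CPM in all others.

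The 250 bases upstream of the transcription start are shown for the 3 genes with the largest fold change at 3 days, so that they can be searched for SMAD and SP1 elements. They were taken from RefSeq (GRCh38.p14), which holds starts for all 10 genes, and are written 5′ to 3′ on the strand of the gene, with capitals for matches to any of the motifs searched. TGFB2 is on the plus strand (chr1:218345086-218345335), and TGFBR3 (chr1:91886152-91886401) and SMAD7 (chr18:48950966-48951215) are on the minus strand. Where a gene has several RefSeq starts, the first listed is shown.
TGFB2 upstream: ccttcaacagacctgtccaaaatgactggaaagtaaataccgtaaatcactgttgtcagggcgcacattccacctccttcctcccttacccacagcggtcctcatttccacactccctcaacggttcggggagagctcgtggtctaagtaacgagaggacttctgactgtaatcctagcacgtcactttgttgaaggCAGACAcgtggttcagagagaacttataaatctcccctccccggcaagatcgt
TGFBR3 upstream: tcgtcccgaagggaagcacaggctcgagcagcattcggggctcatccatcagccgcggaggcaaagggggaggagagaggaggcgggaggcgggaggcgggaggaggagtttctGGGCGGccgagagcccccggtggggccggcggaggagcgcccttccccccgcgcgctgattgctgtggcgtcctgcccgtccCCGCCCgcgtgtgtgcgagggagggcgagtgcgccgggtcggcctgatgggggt
SMAD7 upstream: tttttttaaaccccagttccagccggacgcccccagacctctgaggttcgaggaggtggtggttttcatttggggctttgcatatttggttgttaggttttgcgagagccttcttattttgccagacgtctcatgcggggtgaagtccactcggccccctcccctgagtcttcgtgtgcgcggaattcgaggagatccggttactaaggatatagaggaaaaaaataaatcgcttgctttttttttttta
The motifs searched on both strands were the palindromic SMAD element GTCTAGAC, the CAGA box CAGACA, the cyclic AMP element TGACGTCA, the AP-1 site TGANTCA and the SP1 GC box GGGCGG. Among 35114 upstream windows of the same length, 0.182%, 13.6%, 1.65%, 6.57% and 42.6% hold these in turn. The TGFB2 window has 1 CAGA box, from -53 to -48 relative to the start, and a GC content of 50.4%. The TGFBR3 window has 2 GC boxes, from -136 to -131 and from -54 to -49, and a GC content of 73.6%. It lies within the GENCODE gene body and overlaps no annotated exon, since the longest GENCODE model begins further upstream. The SMAD7 window holds none of the 5 motifs, nor do the windows of its other RefSeq starts, which says only that these letters are not there.

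Among the ligands, TGFB2 showed the clearest difference. TGFB2 (ENSG00000092969, chromosome 1, 218345336 to 218444619 on the plus strand of GRCh38) encodes the ligand that depends on the co-receptor TGFBR3 for binding to TGFBR2. It measured 38.2, 45.3 and 33.1 CPM in Control 3 days, 105.2, 98.3 and 89.8 CPM in SP 3 days, and 148, 133 and 126 CPM in SP 12 days. The 3 groups did not overlap and every SP 12 days library lay above every SP 3 days library. TGFB2 rose 2.52-fold at 3 days (log2 fold change 1.33, SE 0.109, 95% interval 1.10 to 1.56, adjusted p = 8.67e-08, edgeR) and 3.49-fold at 12 days (log2 1.80, interval 1.57 to 2.04, adjusted p = 2.79e-09). Set directly against SP 3 days, SP 12 days gave 0.47 on the log2 scale (SE 0.105, adjusted p = 0.0113, edgeR), the single gene of the 10 that passed there, where 4.46% of all genes rose and 3.65% fell. That call was lost without SP 3 days replicate 2 (adjusted p = 0.0689), SP 3 days replicate 3 (0.0999) or SP 12 days replicate 1 (0.0999).

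At 3 hours TGFB2 differed from control in the opposite direction. It was 55.7, 65.9 and 66.2 CPM in Control 24 hours, 42.7, 39.1 and 38.7 CPM in SP 3 hours and 72.3, 79.2 and 75.0 CPM in SP 24 hours. All SP 3 hours libraries were below all controls, and all SP 24 hours libraries above them. TGFB2 fell to 0.642 of control at 3 hours (log2 -0.64, SE 0.105, interval -0.88 to -0.40, adjusted p = 0.00496, edgeR), a call at an adjusted p under 0.05 that held under every alternative fit and without each library in turn. At 24 hours the log2 difference from control was 0.27 (SE 0.104, adjusted p = 0.0803, edgeR), which did not pass. In a fit of the 2 groups alone, with the replicate block and the GC trend removed, it was 0.30 (adjusted p = 0.0164, edgeR). With these 2 steps in the fit of all 9 libraries it did not pass. Between SP 24 hours and SP 3 hours TGFB2 was 0.91 higher on the log2 scale (adjusted p = 0.000969, edgeR). Against control, the difference at 3 days exceeded that at 24 hours by 1.10 on the log2 scale (SE 0.162, adjusted p = 0.000705, edgeR, all 18 libraries). The time and the experiment cannot be told apart in that comparison, and the controls, each experiment scaled on its own, stood at 55.7 to 66.2 CPM at 24 hours and 33.1 to 45.3 CPM at 3 days. Exons of TGFB2 share 701 bases with TGFB2-AS1 on the opposite strand and 1371 bases with TGFB2-OT1 on the same strand, and as the strand setting of the counting is not stated, reads of these bases cannot be assigned with certainty.

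TGFB1 (ENSG00000105329, chromosome 19, 41301587 to 41353922, minus strand), the most studied of the ligands, was 184, 165 and 197 CPM in Control 3 days and 242, 254 and 223 CPM in SP 3 days. These groups did not overlap, and TGFB1 rose by 0.39 on the log2 scale (SE 0.0839, adjusted p = 0.00109, edgeR). SP 12 days, at 209, 205 and 216 CPM, was 0.21 higher than control (adjusted p = 0.0522) and did not pass, but passed without Control 3 days replicate 3 (0.27, adjusted p = 0.0226) and with no filter on low counts (0.23, adjusted p = 0.0447). In the second experiment TGFB1 ranged from 116 to 224 CPM in Control 24 hours, from 125 to 222 CPM in SP 3 hours and from 257 to 263 CPM in SP 24 hours. All SP 24 hours libraries were above all controls, yet the log2 difference of 0.68 (SE 0.258, interval 0.10 to 1.26) had an adjusted p of 0.0773 in edgeR and did not pass. With the replicate block in a fit of the 2 groups it was 0.72 (adjusted p = 0.0308, edgeR). Exons of TGFB1 share 215 bases with HNRNPUL1 on the opposite strand.

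The exons of TGFB1 are 63.6% GC, above 94.1% of the tested genes, and libraries differed in how far GC-rich genes stood above GC-poor genes. This balance (the median log2 deviation of the GC-richest genes minus that of the GC-poorest, each group being a tercile of tested genes) was -0.64, -0.32 and 0.27 in Control 24 hours and 0.11, 0.38 and 0.46 in SP 24 hours. The control with the highest balance, replicate 3, had the highest TGFB1 of its group at 224 CPM, and the control with the lowest balance had the lowest at 116 CPM. Within SP 24 hours TGFB1 was 262, 263 and 257 CPM over balances of 0.11, 0.38 and 0.46, and in SP 3 days the library with the highest balance, 0.22, had the lowest TGFB1 of its group at 223 CPM, so the order within a group did not always follow the balance. With each library's trend in GC content and transcript length removed, the log2 fold change of TGFB1 was -0.08 at 3 days (adjusted p = 0.395), -0.13 at 12 days (0.141), -0.08 at 3 hours and 0.03 at 24 hours (0.881, edgeR). The sign at 3 days, at 12 days and at 3 hours thus turned, and no TGFB1 difference remained past the threshold. The removal also moved the median log2 fold change over all genes below 0. It was -0.115 at 3 days, -0.0959 at 12 days, -0.0635 at 3 hours and -0.128 at 24 hours. Beyond these values, the part of the balance in the TGFB1 result was not tested. TGFB2, at 42.2% GC, kept 1.27, 1.70 and -0.72 (adjusted p = 0.00343) at 3 days, 12 days and 3 hours under the same correction.

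**Figure D2:**
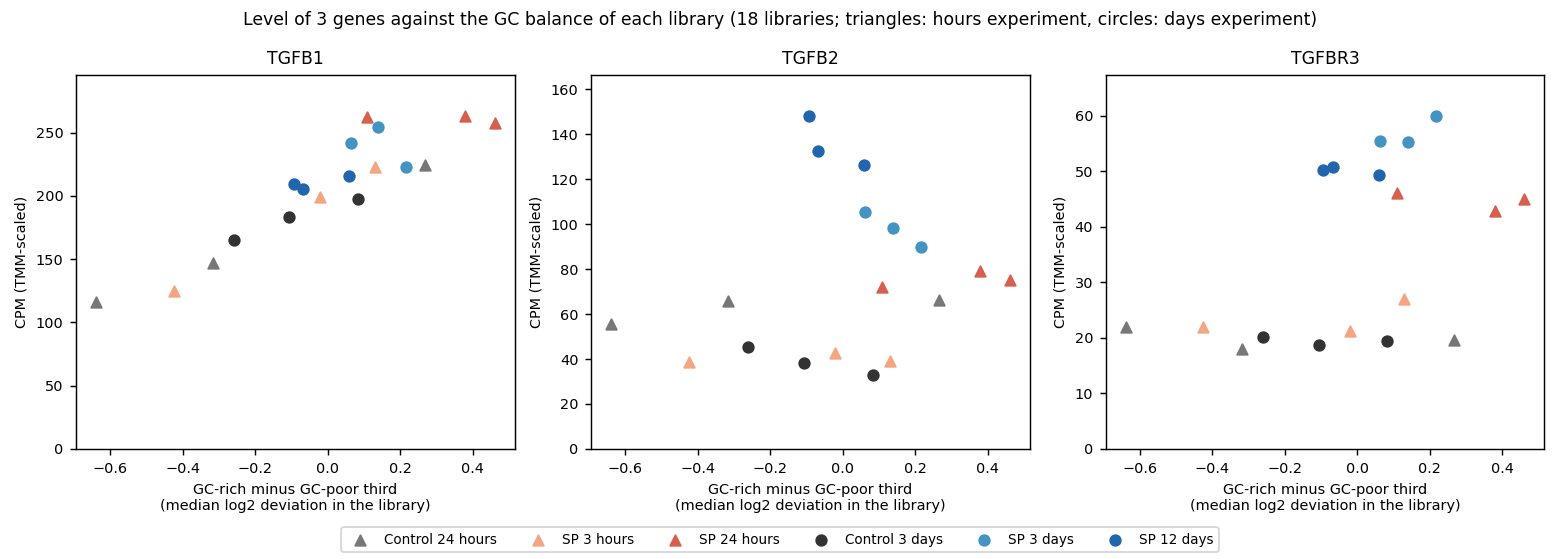
Level of TGFB1, TGFB2 and TGFBR3 (CPM, linear axis from 0) against the GC balance of each of the 18 libraries (log2, GC-richest minus GC-poorest genes); circles are the days experiment and triangles the hours experiment. TGFB1 is lowest, at 116 CPM, in the library with the lowest balance of -0.64, while TGFBR3 in the controls stays between 18.1 and 22.0 CPM across balances from -0.64 to 0.27.

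TGFB3 (ENSG00000119699, chromosome 14, 75958097 to 75983011, minus strand), the third ligand, was close to the detection limit. It measured 2.2, 1.88 and 1.42 CPM in Control 3 days and 2.19, 2.68 and 3.35 CPM in SP 3 days, from 24 to 60 reads a library in that experiment. The groups overlapped and the log2 difference of 0.57 (SE 0.25, adjusted p = 0.0712, edgeR) did not pass, although it passed with the 2 groups alone (0.57, adjusted p = 0.0359) and without SP 12 days replicate 3 (0.56, adjusted p = 0.0367). The differences at 12 days (0.29), 3 hours (-0.10) and 24 hours (0.63, adjusted p = 0.0794) did not pass either. Its SE of 0.25 at 3 days was the largest of the 10 genes. Exons of TGFB3 share 163 bases with TGFB3-AS1 on the opposite strand.

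Among the receptors, TGFBR3 differed most. TGFBR3 (ENSG00000069702, chromosome 1, 91680343 to 91906335, minus strand) encodes betaglycan, a co-receptor that presents ligands, TGF-β2 above all, to the signalling receptors. In Control 3 days it was 18.8, 20.1 and 19.4 CPM, in SP 3 days 55.5, 55.2 and 59.9 CPM, and in SP 12 days 50.2, 50.8 and 49.3 CPM. The treated and control values were far apart, and SP 3 days lay above SP 12 days in all libraries. TGFBR3 rose 2.93-fold at 3 days (log2 1.55, SE 0.083, interval 1.37 to 1.73, adjusted p = 9.21e-10, edgeR) and 2.58-fold at 12 days (log2 1.37, adjusted p = 2.72e-09), and the difference between the SP times was -0.18 on the log2 scale (adjusted p = 0.171).

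At the early times TGFBR3 was 22.0, 18.1 and 19.7 CPM in Control 24 hours, 21.2, 26.9 and 21.9 CPM in SP 3 hours and 46.2, 42.8 and 45.0 CPM in SP 24 hours. SP 3 hours overlapped the control and SP 24 hours did not. It was 0.23 above control at 3 hours (adjusted p = 0.312) and rose 2.24-fold at 24 hours (log2 1.17, SE 0.13, interval 0.87 to 1.46, adjusted p = 0.000293, edgeR). SP 24 hours exceeded SP 3 hours by 0.93 (adjusted p = 0.00177, edgeR), 1 of 3 genes of the 10 that were higher in that comparison with 1 lower, where 11.7% of all genes were higher and 8.40% lower. The difference between the effects at 3 days and at 24 hours, 0.43, did not pass (adjusted p = 0.102). TGFBR3 shares no exon with another gene, and its calls at 24 hours, 3 days and 12 days held under every alternative fit and without each library in turn, with 1.49, 1.26 and 1.19 on the log2 scale at 3 days, 12 days and 24 hours once the GC trend was removed.

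The genes whose log2 CPM over the 18 libraries was most like that of TGFBR3, among 14949 compared, were MCAM (Pearson r = 0.983), AIF1L (0.983), PRRT4 (0.983), DKK3 (0.982) and DTX1 (0.981). These points share the treatment and the experiment, so the values are a description. MCAM, a cell adhesion molecule, had log2 fold changes of 2.95 at 3 days, 2.68 at 12 days, 0.55 at 3 hours and 1.92 at 24 hours, and DKK3, a secreted Dickkopf family protein, had 1.79, 1.73, 0.45 and 1.37. Within the 10 genes the highest r with TGFBR3 over these libraries were those of SMAD7 (0.833) and TGFB2 (0.801).

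TGFBR2 (ENSG00000163513, chromosome 3, 30606601 to 30694142, plus strand), the type II receptor kinase that binds the ligand first, had the highest level per kb of the 10 in Control 3 days and was higher with SP. It was 475, 488 and 479 CPM in Control 3 days, 553, 566 and 583 CPM in SP 3 days and 686, 618 and 800.0 CPM in SP 12 days, without overlap between the 3 groups. TGFBR2 rose by 0.24 on the log2 scale at 3 days (SE 0.0918, adjusted p = 0.0415, edgeR) and by 0.55 at 12 days (SE 0.0919, adjusted p = 0.000143). Set directly against SP 3 days, SP 12 days was 0.31 higher (adjusted p = 0.0519, edgeR) and did not pass. That difference passed with DESeq2 (adjusted p = 0.0188), with no filter (0.0125) and without SP 12 days replicate 2 (0.0197) or 3 (0.0453). The 3-day call was fragile: it was lost without any 1 of 7 of the 9 libraries (adjusted p up to 0.121) and after GC removal (0.17, adjusted p = 0.125). In the second experiment TGFBR2 was 235, 295 and 263 CPM in Control 24 hours, 228, 267 and 211 CPM in SP 3 hours, and 388, 479 and 398 CPM in SP 24 hours. SP 3 hours overlapped the control (-0.17, adjusted p = 0.505), whereas SP 24 hours lay above it and rose 1.60-fold (log2 0.68, SE 0.134, adjusted p = 0.0055, edgeR). SP 24 hours was also 0.84 above SP 3 hours (adjusted p = 0.00321). Control levels, with each experiment scaled on its own, were 475 to 488 CPM at 3 days and 235 to 295 CPM at 24 hours.

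TGFBR1 (ENSG00000106799, chromosome 9, 99104038 to 99154192, plus strand), the type I receptor kinase that phosphorylates SMAD2 and SMAD3, did not pass against either control, although at 24 hours it did under several alternatives. It was 67.7, 71.7 and 65.1 CPM in Control 3 days, 66.4, 61.2 and 57.3 CPM in SP 3 days and 75.2, 74.2 and 68.5 CPM in SP 12 days. The groups overlapped, and the log2 differences from control were -0.15 (interval -0.32 to 0.03) and 0.09 (interval -0.08 to 0.27), the first of which was -0.17 (adjusted p = 0.0491) after GC removal. Control 24 hours held 90.3, 96.9 and 56.3 CPM, SP 3 hours 87.9, 79.7 and 108 CPM, and SP 24 hours 59.9, 52.9 and 46.9 CPM. Replicate 3 of the control lay among the SP 24 hours libraries, and the log2 difference of -0.61 (SE 0.205, adjusted p = 0.0506, edgeR) stood just past the threshold on the side of no call. A fit of the 2 groups with the replicate block gave -0.59 (adjusted p = 0.00964) and, with the GC trend also removed, -0.41 (adjusted p = 0.0017), and DESeq2 gave -0.63 (adjusted p = 0.0264). Against SP 3 hours, SP 24 hours was lower by -0.79 (adjusted p = 0.0254, edgeR), a call lost without SP 3 hours replicate 1 or 3 or SP 24 hours replicate 2 or 3 (adjusted p up to 0.0977). TGFBR1 has the lowest GC content of the 10 genes, 38.8%.

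**Figure D3:**
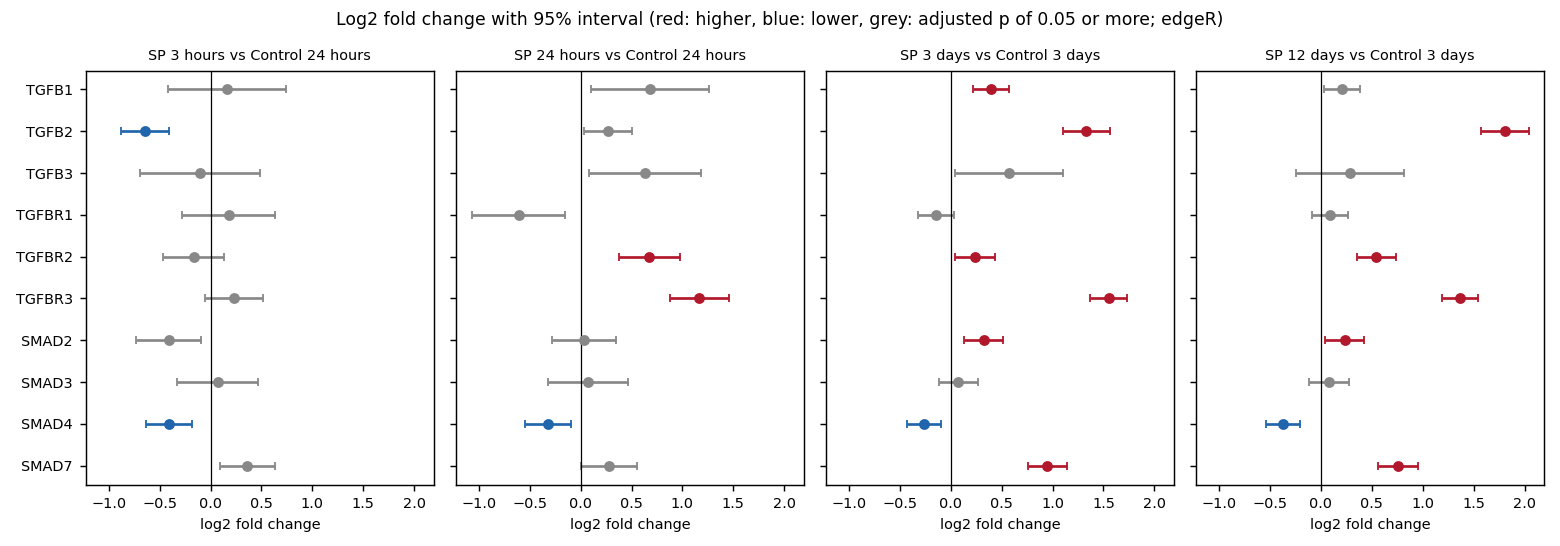
Log2 fold change of the 10 genes (horizontal axis) against the control of the same experiment in the 4 comparisons with control, with 95% intervals from edgeR; red marks genes that rose, blue genes that fell and grey genes that did not pass an adjusted p of 0.05. TGFB2 stands at -0.64 after 3 hours and at 1.80 after 12 days, and SMAD4 is blue in all 4 panels.

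Of the receptor-activated SMADs, SMAD3 passed in no comparison. SMAD3 (ENSG00000166949, chromosome 15, 67063763 to 67195173, plus strand), which binds DNA directly, was 231, 231 and 241 CPM in Control 3 days, 241, 245 and 254 CPM in SP 3 days and 253, 277 and 212 CPM in SP 12 days. Its log2 difference was 0.07 at 3 days (interval -0.12 to 0.27, adjusted p = 0.524) and 0.08 at 12 days (interval -0.12 to 0.27), so that a log2 change beyond 0.27 in size lay outside the interval at either time. Without SP 12 days replicate 3 the 12-day value was 0.16 and passed (adjusted p = 0.0467, edgeR). In the second experiment the intervals were wider, from -0.32 to 0.47 at 3 hours and at 24 hours, with Control 24 hours at 330.1, 325 and 498 CPM, SP 3 hours at 452, 418 and 340.2 CPM, and SP 24 hours at 396, 383 and 436 CPM. The sign of these small values turned to -0.14, -0.05, -0.07 and -0.21 at 3 days, 12 days, 3 hours and 24 hours after GC removal, none of which passed. Exons of SMAD3 share 182 bases with ENSG00000259347 on the opposite strand.

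SMAD2 (ENSG00000175387, chromosome 18, 47808957 to 47931146, minus strand), the other receptor-activated SMAD of this arm, was 161, 173 and 147 CPM in Control 3 days, 207, 192 and 202 CPM in SP 3 days and 186, 170.5 and 208 CPM in SP 12 days. Only SP 3 days lay clear of the control. SMAD2 rose by 0.32 on the log2 scale at 3 days (SE 0.0896, adjusted p = 0.00729, edgeR), and by 0.24 at 12 days (adjusted p = 0.0391), where the call was lost with the replicate block (0.0532), with the 2 groups alone (0.0966), after GC removal (0.153) and without any 1 of 7 libraries. SMAD2 was 155, 161 and 121 CPM in Control 24 hours, 101, 100.4 and 127 CPM in SP 3 hours, and 159.8, 151 and 137 CPM in SP 24 hours. The log2 difference was -0.41 at 3 hours (SE 0.141, adjusted p = 0.0962, edgeR), did not pass, and was -0.46 (adjusted p = 0.0214) after GC removal. At 24 hours it was 0.03 (adjusted p = 0.871).

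SMAD4 (ENSG00000141646, chromosome 18, 51028528 to 51085045, plus strand), the common partner of the receptor-activated SMADs, was the single gene of the 10 to fall at 3 days and at 12 days. It was 57.8, 57.3 and 53.8 CPM in Control 3 days, 48.0, 47.2 and 45.2 CPM in SP 3 days, and 41.8, 45.5 and 43.3 CPM in SP 12 days. In Control 24 hours it was 58.1, 58.2 and 55.7 CPM, in SP 3 hours 41.7, 40.1 and 48.0 CPM, and in SP 24 hours 47.4, 46.4 and 43.9 CPM. Every one of the 12 libraries given SP lay below every control of its experiment. SMAD4 fell by 0.27 on the log2 scale at 3 days (adjusted p = 0.0108, edgeR), by 0.37 at 12 days (adjusted p = 0.00104), by 0.41 at 3 hours (adjusted p = 0.031) and by 0.32 at 24 hours (adjusted p = 0.0405). The 12-day call held throughout, and the 3-day call was lost without Control 3 days replicate 1 (0.051) and with no filter on low counts (0.0608). The calls at 3 and 24 hours were lost with no filter (0.125 and 0.213), with the 2 groups alone (0.0986 and 0.0532), with a replicate block over all 9 libraries (0.0534 and 0.0585) and without any 1 of 7 and 6 libraries. After GC removal the values were -0.35, -0.49, -0.50 and -0.29 (adjusted p = 0.000876, 4.39e-05, 0.0122 and 0.0704). Its exons share 967 bases with ENSG00000267699 on the same strand.

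SMAD7 (ENSG00000101665, chromosome 18, 48919853 to 48950965, minus strand), the inhibitory SMAD, was 21.5, 22.4 and 20.7 CPM in Control 3 days, 43.5, 43.0 and 38.3 CPM in SP 3 days, and 38.4, 34.6 and 36.3 CPM in SP 12 days. Neither treated group overlapped the control. SMAD7 rose 1.93-fold at 3 days (log2 0.95, SE 0.0904, interval 0.76 to 1.14, adjusted p = 4.55e-07, edgeR) and 1.69-fold at 12 days (log2 0.76, adjusted p = 4.46e-06). In the second experiment it was 39.5, 38.6 and 49.2 CPM in Control 24 hours, 58.4, 53.5 and 51.6 CPM in SP 3 hours and 48.7, 50.6 and 55.1 CPM in SP 24 hours. All SP 3 hours libraries were above all controls, with a log2 difference of 0.36 (adjusted p = 0.0903, edgeR), whereas SP 24 hours overlapped them at 0.28 (adjusted p = 0.113). The effect at 3 days exceeded that at 24 hours by 0.71 (SE 0.158, adjusted p = 0.0122, edgeR), a call lost without Control 3 days replicate 3 (0.0541), without SP 3 days replicate 2 (0.0552) and with no filter (0.0718). TGFB2 and SMAD7 were thus 2 of the 10 genes that passed in that comparison, where 3.13% of 18785 genes were higher and 3.15% lower. With GC removal SMAD7, at 57.0% GC, stood at 0.68 at 3 days (adjusted p = 6.36e-05), 0.60 at 12 days (0.000186) and -0.16 at 24 hours (0.267), and the difference between 3 days and 24 hours at 0.84 (0.00114). Between SP 24 hours and SP 3 hours the log2 difference was -0.08 (adjusted p = 0.654), which became -0.35 (0.0292) with GC removal. With each experiment scaled on its own, SMAD7 was 38.6 to 49.2 CPM in the untreated cells of the second experiment and 20.7 to 22.4 CPM in those of the first, and 2 of the 3 SP 3 days libraries lay within the range of the former.

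**Figure D4:**
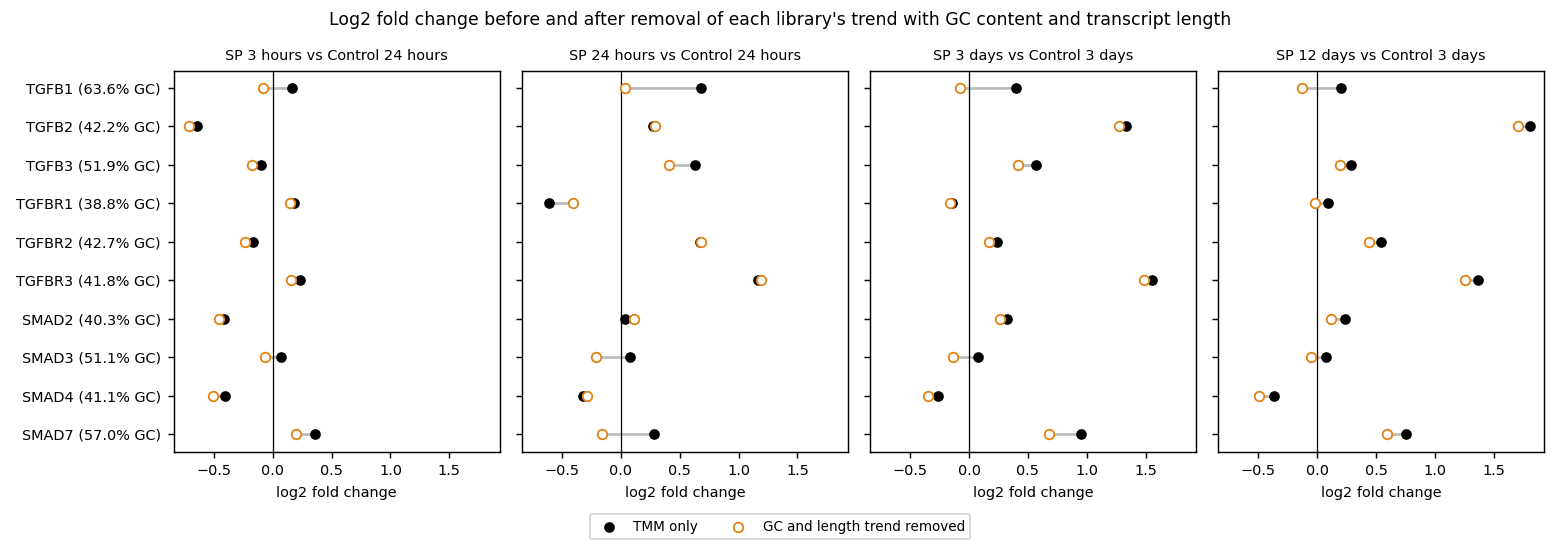
Log2 fold change (horizontal axis) of the 10 genes, each with its exonic GC content, with TMM scaling alone (black) and after the trend of each library with GC content and transcript length was removed (open orange), in the 4 comparisons with control. TGFB1, at 63.6% GC, moves from 0.68 to 0.03 at 24 hours, while TGFBR3, at 41.8% GC, stays between 1.17 and 1.19.

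The same correction bears on the whole transcriptome, and the counts above are given with it. Of the genes past an adjusted p of 0.05, the share that rose was 52.0% at 3 days, 53.0% at 12 days, 64.3% at 3 hours, 58.3% at 24 hours and 58.3% between 24 and 3 hours, and after GC removal 39.1%, 41.5%, 48.2%, 36.5% and 41.7%. Over all genes the median log2 fold change moved from -0.02 to -0.12 at 3 days and from -0.01 to -0.13 at 24 hours. Of the 10 genes, 4 rose and 2 fell at 3 days after it, 4 rose and 1 fell at 12 days, 3 fell at 3 hours, and 2 rose and 1 fell at 24 hours. Over all genes 21.3% rose and 33.2% fell at 3 days after it, and 22.6% and 31.9% at 12 days. At 3 hours 8.55% rose and 9.2% fell, and at 24 hours 14.2% and 24.7%. Control 24 hours replicate 3, whose balance of 0.27 stood apart from -0.64 and -0.32 in its group, decided much of the early counts: without it, 1 gene rose and 3 fell at 3 hours (8.45% and 3.92% of all genes), and 5 rose and 2 fell at 24 hours (19.7% and 17.3% of all genes). At 24 hours TGFB1 (0.98, adjusted p = 0.00879), TGFB3 (0.86, adjusted p = 0.036), TGFBR1 (-0.82, adjusted p = 0.00407) and SMAD7 (0.39, adjusted p = 0.0243, edgeR) were added.

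The rest of the pathway was described by a list of 119 genes in 8 roles, of which 110 were tested in the first experiment and 107 in the second. The list was written with earlier results of these data known, so its shares beside those of all genes are a description. At 3 days 40 rose and 35 fell, at 12 days 40 rose and 37 fell, at 3 hours 6 rose and 6 fell, and at 24 hours 20 rose and 13 fell, with median log2 fold changes of -0.03, -0.07, 0.05 and 0.03. The share that rose at 3 days was 36.4% and at 24 hours 18.7%, beside 25.2% and 16.8% of all genes. After GC removal the counts were 35 and 47 at 3 days, 32 and 50 at 12 days, 8 and 13 at 3 hours and 14 and 26 at 24 hours, and lower calls also outnumbered higher ones over all genes in each of these 4 comparisons, with 21.3% against 33.2% of them at 3 days and 14.2% against 24.7% at 24 hours. The counts by role below are to be read against the shares of all genes given above, where 25.2% rose and 23.3% fell at 3 days, 26.4% rose and 23.4% fell at 12 days, 7.39% rose and 4.11% fell at 3 hours, and 16.8% rose and 12.0% fell at 24 hours.

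Of the other ligands of the superfamily and their antagonists, 11 of 18 rose and 4 fell at 3 days, 10 and 6 at 12 days, 3 and 1 of 17 at 3 hours, and 8 and 1 of 17 at 24 hours. BMP7, a bone morphogenetic protein, rose with log2 fold changes of 2.77 at 3 days (SE 0.237, adjusted p = 1.43e-07), 3.85 at 12 days and 2.90 at 24 hours (adjusted p = 0.000432, edgeR). BMP4 rose by 1.17 at 3 days, 1.29 at 12 days and 0.73 at 24 hours (adjusted p = 0.0459), BMP8B by 1.38 at 3 days and GDF11 by 1.46 at 12 days. FST, the secreted activin antagonist follistatin, fell by 2.86 at 3 days (adjusted p = 5.41e-09), by 3.58 at 12 days and by 2.98 at 24 hours (adjusted p = 0.00161, edgeR), and BMP6 fell by 1.06 at 12 days. The BMP antagonists GREM1 (1.57 at 3 days and 1.84 at 12 days), CHRD (2.47 at 3 days, adjusted p = 3.52e-05) and NOG rose. NOG went from 8 reads in the 3 libraries of Control 3 days to 113 in SP 3 days and 117 in SP 12 days (adjusted p = 3.78e-06 and 6.54e-06, edgeR). Exons of BMP4, BMP6, BMP8B, GDF11, GREM1 and CHRD overlap genes on the opposite strand, by 80 to 506 bases.

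**Figure D5:**
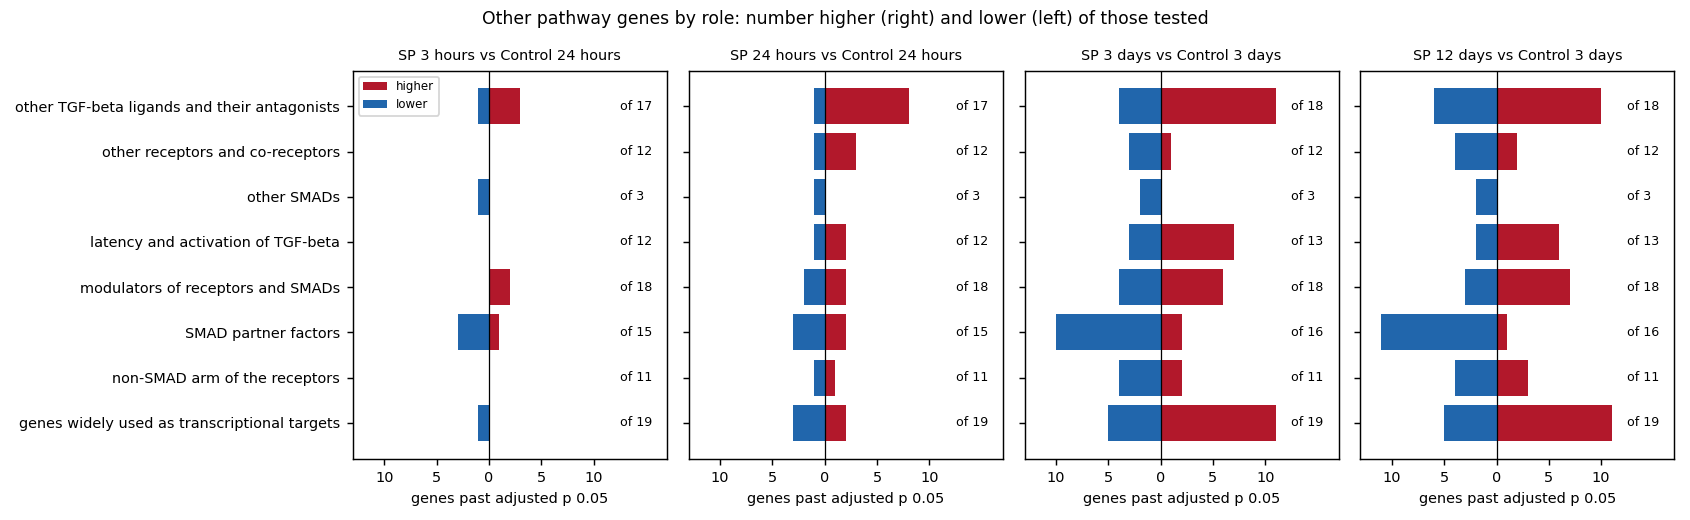
Number of other pathway genes past an adjusted p of 0.05 (horizontal axis; higher to the right in red, lower to the left in blue) by role, in the 4 comparisons with control; the number printed beside each bar is that of genes tested. At 3 days 11 of 18 ligands and antagonists rose, and 10 of 16 SMAD partner factors fell.

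Of the other receptors and co-receptors, 1 of 12 rose (ACVR1C) and 3 fell (ACVR1, BMPR1B and CD109) at 3 days, 2 rose and 4 fell at 12 days, none passed at 3 hours, and 3 rose (ACVRL1, ENG and BAMBI) and 1 fell (CD109) at 24 hours. ACVR1C was near the detection limit, with 8 reads in the 3 libraries of Control 3 days and 30 in those of SP 3 days. Of the 3 other SMADs tested, SMAD1, a mediator of BMP signals, fell at 3 days (-0.82, adjusted p = 0.000208), 12 days (-0.72), 3 hours and 24 hours (-0.76, adjusted p = 0.00264, edgeR), and SMAD6, the inhibitory SMAD of the BMP arm, fell at 3 and 12 days (-0.47 and -0.57). Among the genes of latency and activation, 7 of 13 rose and 3 fell at 3 days, 6 and 2 at 12 days, none passed at 3 hours, and 2 of 12 rose and 1 fell at 24 hours. LTBP4, a latent TGF-β binding protein, rose by 1.29 at 3 days (adjusted p = 1.1e-07), 0.79 at 12 days and 1.77 at 24 hours (adjusted p = 0.0147, edgeR), and THBS1, thrombospondin, an activator of latent TGF-β, fell by 0.65 and 0.94 at 3 and 12 days.

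Of 18 modulators of receptors and SMADs, 6 rose and 4 fell at 3 days, 7 and 3 at 12 days, 2 and 0 at 3 hours, and 2 and 2 at 24 hours. PMEPA1, a target of the pathway that restrains it by binding SMADs, rose by 1.02 at 3 days (adjusted p = 3.7e-08) and 1.56 at 12 days (adjusted p = 4.32e-10), and was -0.18 at 24 hours (adjusted p = 0.462, edgeR). PARD6A, a polarity protein that the type II receptor phosphorylates, fell by 1.23 at 3 days, 1.59 at 12 days and 1.25 at 24 hours (adjusted p = 0.000216, edgeR). Of the SMAD partner factors, 2 of 16 rose and 10 fell at 3 days, 1 and 11 at 12 days, 1 and 3 of 15 at 3 hours, and 2 and 3 of 15 at 24 hours, the share that fell at 3 days being 62.5%, beside 23.3% of all genes. The co-activator acetyltransferases CREBBP (-0.998 at 3 days and -1.11 at 12 days) and EP300 (-0.56 and -0.64) and the co-repressor SKIL (-0.93 and -0.78) fell, while at 24 hours CREBBP was 0.01 (adjusted p = 0.993) and EP300 0.48 (adjusted p = 0.474, edgeR). For CREBBP and EP300 the difference between the effects at 3 days and 24 hours did not pass. It was -0.95 for CREBBP (SE 0.514, adjusted p = 0.31) and -0.98 for EP300 (SE 0.545, adjusted p = 0.323, edgeR). TGIF2, a co-repressor of SMADs, rose in all 4 comparisons, by 1.64 at 3 days, 1.45 at 12 days, 1.09 at 3 hours (adjusted p = 0.00328) and 0.94 at 24 hours (adjusted p = 0.00262, edgeR), with 308 exonic bases shared with the readthrough TGIF2-RAB5IF on the same strand. The 11 genes of the non-SMAD arm had 2 higher and 4 lower at 3 days, 3 and 4 at 12 days, none at 3 hours, and 1 and 1 at 24 hours.

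Of the genes widely used as transcriptional targets of TGF-β, 11 of 19 rose and 5 fell at 3 days and again at 12 days, none rose and 1 fell at 3 hours, and 2 rose and 3 fell at 24 hours. As shares these were 57.9% and 26.3% at 3 days, beside 25.2% and 23.3% of all genes, and 10.5% and 15.8% at 24 hours, beside 16.8% and 12.0%. COL1A1, a fibrillar collagen chain, rose by 2.22, 1.48 and 2.48 at 3 days, 12 days and 24 hours (adjusted p = 0.00412 for the last), and SPHK1, a sphingosine kinase, by 2.44, 2.67 and 1.06. MMP2 (1.23 and 1.24 at 3 and 12 days), TGFBI (1.34 at 3 days) and LOXL2 (1.09 at 3 days) also rose, and TIMP3 went from 2 reads in Control 3 days to 50 in SP 12 days, a ratio of 23.4 with a counting interval of 6.15 to 199. The mesenchymal filament gene VIM rose by 0.34 at 3 days and 0.45 at 12 days and fell by 0.65 at 24 hours (adjusted p = 0.00109, edgeR), and TAGLN rose by 0.51 at 3 days and fell by 1.12 at 24 hours (adjusted p = 0.0254, edgeR). Exons of VIM and TAGLN overlap other genes, by up to 656 and 2498 bases. ID1, a target of the BMP arm, fell by 0.54 and 0.50 at 3 and 12 days.

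The effects at 3 days and at 24 hours, each against its own control, were also compared directly for these genes. Of 112 tested, 15 had a higher effect at 3 days and 7 a lower one, beside 3.13% and 3.15% of all genes. Among the 19 targets the effect was higher for 7, among them VIM (by 1.03 on the log2 scale, SE 0.142, adjusted p = 0.000481), SPHK1 (1.42, adjusted p = 0.000954), TGFBI (1.14), TAGLN (1.68), ID2 (0.98) and SNAI2 (2.25), and lower for ID1 (-0.71, adjusted p = 0.00557, edgeR). SNAI2 encodes an epithelial-to-mesenchymal transcription factor and ID2 an inhibitor of helix-loop-helix factors. PMEPA1 (1.25, adjusted p = 0.00154) and NOG (3.27, adjusted p = 0.0035, edgeR) were higher as well, and GDF15, a divergent member of the ligand family, was lower by -1.06 (adjusted p = 0.000238). For COL1A1 (-0.20, SE 0.527), BMP7 (-0.10, SE 0.417) and FST (0.18, SE 0.511) no difference between the effects passed. A difference between effects can come from a change at 3 days, at 24 hours or both. For SNAI2, ID2 and GDF15 the effects at each time are not given here, so no rise or fall at 3 days follows. As for TGFB2 and SMAD7, the time of treatment and the experiment cannot be told apart here.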

How the data were processed

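Libraries had been prepared by the authors from total RNA with the NEBNext Ultra kit and sequenced as paired ends on the NovaSeq platform. The authors aligned the reads with STAR 2.7.9a to GRCh38 and counted them per Ensembl gene with featureCounts, and the deposited tables hold these raw counts without normalization. The strand setting and the treatment of reads with several matches are not given in the sources used here. The submitters' processing notes also name R 4.2.1 and DESeq2 1.36.0.

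The analysis used edgeR 4.0.16 (R 4.3.3). After filterByExpr with a minimum count of 10, which left 17775 and 17377 of 61541 genes, libraries were scaled by TMM, a robust quasi-likelihood model was fitted over the 9 libraries of each experiment, and Benjamini-Hochberg adjustment covered all genes tested. An adjusted p under 0.05 counts as passing, and the thresholds of the paper (adjusted p under 0.0001 and 2-fold) are the stricter rule. The effects at 3 days and 24 hours were compared in 1 fit of all 18 libraries. CPM are scaled by TMM, and log2 CPM used a prior count of 2. GC content and lengths come from GENCODE 44, and upstream sequences from RefSeq. DESeq2 1.42.0, other scaling, no filter, fits of 2 groups, a replicate block, removal of GC and length trends, and leaving out each library were tried. The main fit was also run on counts simulated as independent libraries without a GC trend. That simulation cannot show how the fit behaves under the GC balance or the correlated libraries of these data. Assigned reads ranged from 14187401 to 43765330, and the median SE of a log2 fold change was 0.13 in the first and 0.203 in the second experiment. No 2 libraries of a group differed by as little as sampling noise.

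Replicate numbers come from the labels. Deviations from the group means correlated between same-numbered libraries of Control 24 hours and SP 24 hours (0.499, 0.17 and 0.504). The main fits have no replicate block, and the number entered as a block only in alternative fits. No other 2 groups correlated in this way for all their same-numbered libraries. SP 3 hours replicate 2 with SP 24 hours replicate 2 gave 0.377, and Control 24 hours replicate 3 with SP 3 hours replicate 3 gave -0.592. Differently numbered libraries correlated too. Control 24 hours replicate 1 with SP 3 hours replicate 3 gave 0.576, and replicate 3 with replicate 2 gave 0.519. Control 24 hours replicate 2 with SP 24 hours replicate 1 gave 0.162. These values do not establish that a shared number marks a pair. The genes and lists were chosen with earlier results of these data known. The text names all 10 genes and, of the other pathway genes, those past the stricter rule in a comparison with control, except 1 that is not reported here. The genes THBS1, EP300, SKIL, VIM, TAGLN, SNAI2, ID1, ID2, GDF15, SMAD1, SMAD6 and the receptors named were added after their values were seen. The alternatives of a 2-group fit with the block, and GC removal in the comparison of effects, were also added after seeing the data. The genes most like TGFBR3 were ranked by Pearson's r over 18 libraries.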

Additional observations from a re-analysis of the deposited data

Results flagged for a closer look

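These 7 values mark genes whose level with SP, or difference from control, differed between times in a direct test (edgeR's quasi-likelihood test, Benjamini-Hochberg adjusted over all genes). TGFB2 was 0.47 higher on the log2 scale in SP 12 days than in SP 3 days (adjusted p = 0.0113) and 0.91 higher in SP 24 hours than in SP 3 hours (adjusted p = 0.000969), each pair sharing its control. Its effect at 3 days exceeded that at 24 hours by 1.10 (adjusted p = 0.000705). TGFBR3 and TGFBR2 were 0.93 and 0.84 higher in SP 24 hours than in SP 3 hours (adjusted p = 0.00177 and 0.00321), and TGFBR1 was lower by -0.79 (adjusted p = 0.0254). For SMAD7 the effect at 3 days exceeded that at 24 hours by 0.71 (adjusted p = 0.0122). In the comparisons of 3 days with 24 hours, the time and the experiment cannot be told apart. Between the SP groups of 1 experiment, the length of SP treatment and time in culture cannot be told apart. Only 1 group of each such pair has a control of its own time.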

How the results depend on the processing

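The calls for TGFB2 at 3 hours, 3 days and 12 days, TGFBR3 at 24 hours, 3 days and 12 days, SMAD7 at 3 and 12 days, TGFBR2 at 12 days and SMAD4 at 12 days kept their direction and stayed past an adjusted p of 0.05 in every alternative fit and without each library in turn. The number of the 10 genes that passed changed by more than 1.5 times only as follows. With the stricter rule it was 2 at 3 days, 2 at 12 days, and 0 at 3 hours, at 24 hours and between 24 and 3 hours, where DESeq2 called 286 genes higher and 114 lower over the transcriptome at 3 hours and edgeR 0, with 4367 at an unadjusted p under 0.05. Between 12 and 3 days it was 2 with DESeq2 and 2 with no filter, at 3 hours 1 with no filter, 1 with the 2 groups alone and 1 with the replicate block, at 24 hours 5 with the 2 groups and the replicate block with or without GC removal, and in the comparison of effects 1 with no filter. Over all genes the shares higher and lower in these fits were, in turn, 4.72% and 4.68%, and 2.91% and 2.27%. At 3 hours they were 3.62% and 1.81%, 3.86% and 2.16%, and 6.95% and 4.08%. At 24 hours they were 18.1% and 31.6% with GC removal and 20.1% and 18.2% without it. In the comparison of effects they were 1.43% and 2.57%. At 3 hours the pathway genes past the threshold were 7 with the 2 groups alone, 21 with GC removal and 27 with GC removal and the block. Of all genes 8.55% rose and 9.2% fell with GC removal, and 9.48% and 11% with the block as well. Leaving out 1 library gave 5 to 8 genes at 3 days, 5 to 6 at 12 days, 0 to 4 between 12 and 3 days, 1 to 4 at 3 hours, 2 to 7 at 24 hours, 3 to 6 between 24 and 3 hours and 1 to 3 in the comparison of effects. Over all genes the shares higher and lower were then 21.6 to 28.6% and 18.5 to 29% at 3 days. At 12 days they were 22.4 to 27.3% and 19.4 to 27.6%, and between 12 and 3 days 1.65 to 13.6% and 1.39 to 14.5%. At 3 hours they were 3.49 to 8.45% and 1.8 to 3.92%, and at 24 hours 10.6 to 19.7% and 5.22 to 17.3%. Between 24 and 3 hours they were 6.56 to 13.5% and 3.17 to 11.2%, and in the comparison of effects 1.38 to 3.77% and 1.61 to 6.8%. For pathway genes leaving out 1 library gave 63 to 78 at 3 days, 66 to 83 at 12 days, 7 to 17 at 3 hours and 16 to 47 at 24 hours. The extremes of these gene counts were reached without Control 24 hours replicate 3 (4 at 3 hours, 7 and 47 at 24 hours), SP 3 hours replicate 3 (5 at 24 hours), SP 12 days replicate 3 (4 between 12 and 3 days) and SP 24 hours replicate 2 (16).

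Values that changed sign were small and passed in no setting that turned them. With GC removal they were -0.0755 (TGFB1) and -0.14 (SMAD3) at 3 days, -0.13 (TGFB1), -0.0153 (TGFBR1) and -0.0519 (SMAD3) at 12 days, -0.0821 (TGFB1) and -0.0693 (SMAD3) at 3 hours, -0.21 (SMAD3) and -0.16 (SMAD7) at 24 hours, -0.14 (SMAD3) between 24 and 3 hours, and 0.0327 (TGFB3) and -0.0402 (SMAD4) in the comparison of effects. With the replicate block as well they were -0.0774 and -0.14, -0.13, -0.0155 and -0.0603, -0.0869 and -0.0564, -0.21 and -0.15, and -0.15 in the same order, and in the 2-group fit -0.20 (SMAD3) and -0.15 (SMAD7). SMAD3 between 12 and 3 days was -0.00747 with DESeq2 size factors in edgeR, -0.00286 with DESeq2 and -0.00135 with the block, between 24 and 3 hours -0.00724 with the block, and -0.0283 in the comparison of effects with no filter. Without 1 library SMAD3 ranged from -0.0275 to 0.16 at 12 days, -0.0958 to 0.0908 between 12 and 3 days, -0.0522 to 0.30 at 3 hours, -0.0550 to 0.30 at 24 hours, -0.11 to 0.0865 between 24 and 3 hours, and -0.26 to 0.17 in the comparison of effects. TGFB1 ranged from -0.0478 to 0.47, TGFB3 from -0.33 to 0.13 and TGFBR1 from -0.0270 to 0.32 at 3 hours, SMAD2 from -0.0892 to 0.10 at 24 hours and TGFB3 from -0.33 to 0.20 in the comparison of effects. The cause of these shifts was not tested. The replicate block over all 9 libraries lost the calls for SMAD2 at 12 days and SMAD4 at 3 and 24 hours given above, added TGFB3 between 24 and 3 hours (0.75, adjusted p = 0.0484) and changed no other call of the 10 genes. Depth limits TGFB3 most, with 14 to 85 reads a library in the second experiment.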
